A study of Rattus norvegicus with 5 samples.

Results

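Some dopamine neurons of the ventral tegmental area (VTA) also carry *Slc17a6*, the gene of vesicular glutamate transporter 2 (VGLUT2). The nuclei described here were chosen by single-nucleus RNA-sequencing (snRNA-seq) counts from VTA punches of rats. Counts are of unique molecular identifiers (UMIs), which stand for single captured RNA molecules, and a barcode marks the droplet of each nucleus. Barcodes were kept with at least 1000 UMIs, more than 200 and fewer than 5000 genes and under 5% mitochondrial UMIs. A dopamine nucleus had at least 3 of *Th*, *Slc6a3*, *Slc18a2* and *Ddc* detected at a sum of at least 8 per 10000 UMIs, at least 1 UMI of *Nyap2*, *Rbfox3*, *Syt1*, *Celf4* or *Grin2b*, and *Mog*, a myelin gene, under 10 per 10000. Of 22084 barcodes kept, 2413 were dopamine nuclei, and 415 of these had at least 1 *Slc17a6* UMI and are called *Slc17a6*-positive. The other 1998 had none and are called *Slc17a6*-negative, which means only that no UMI was captured.

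The libraries came from 5 adult male Sprague-Dawley rats of a study of GLP-1 receptors and cocaine seeking, with the punches of both sides of a rat combined and frozen. These rats are drug-naïve in the paper, while GEO's treatment field reads saline. There was 1 condition, and each library was taken as 1 rat. Rats 1 to 5 gave 55, 232, 9, 66 and 53 *Slc17a6*-positive dopamine nuclei and 153, 1246, 194, 161 and 244 *Slc17a6*-negative ones, and no barcode of a dopamine nucleus was shared between libraries.

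Dopamine neurons make dopamine from tyrosine with TH and the decarboxylase DDC, load it into vesicles with VMAT2 (*Slc18a2*) and take it up again with the dopamine transporter (*Slc6a3*). VGLUT2 loads glutamate into synaptic vesicles, and neurons with both sets of genes can release both transmitters. Such cells are known to be common in the medial VTA, and a nucleus holds only part of the RNA of its cell.

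Depth and RNA from outside the nuclei differed between libraries and bear on every value below. The 5 libraries held 10193355 to 88576210 UMIs, and rat 3 was the smallest. The median *Slc17a6*-positive dopamine nucleus held 2037, 5264.5, 3254, 9929.5 and 8047 UMIs in rats 1 to 5. In the *Slc17a6*-positive nuclei of rats 1 and 2 the median mitochondrial share was 3.49% and 1.59%, against 0.127% in rat 4. Free RNA, read from barcodes with fewer than 100 UMIs, held the 4 dopamine genes at a sum of 12.6 to 22.3 per 10000 UMIs, above the limit of 8 that the nuclei had to pass. It held *Slc17a6* at 0.494 to 1.93 per 10000. Summed over 12 oligodendrocyte genes, the *Slc17a6*-positive dopamine nuclei held 23.1 to 87.0 UMIs per 10000 in the 5 rats, the *Slc17a6*-negative ones 19.9 to 114, and oligodendrocyte nuclei 204 to 279. The highest sums of both kinds of dopamine nuclei were those of rat 1. The sum of 10 microglia genes was 8.57 in the *Slc17a6*-positive nuclei of rat 1 and 0.422 to 0.894 in those of the other rats. In the *Slc17a6*-negative nuclei it was 1.23 in rat 1 and 0.443 to 2.06 over the 5 rats. What part free RNA and nuclei of other cells had in the results was not tested, apart from the values given beside each.

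*Slc17a6* was detected in 26.4%, 15.7%, 4.43%, 29.1% and 17.8% of the dopamine nuclei of rats 1 to 5, with a mean of 18.7% ± 9.76 (SD, n = 5). The share is a description, since the gene itself chose the nuclei. Oligodendrocyte nuclei, which should lack the gene, had a UMI of it in 16.5%, 5.55%, 7.83%, 6.74% and 2.72%, at a median of 2904 UMIs over all rats. Dopamine nuclei were above oligodendrocyte nuclei in rats 1, 2, 4 and 5. In rat 3 the order was turned, with 9 of 203 against 13 of 166 nuclei and overlapping exact 95% intervals (2.05 to 8.25 against 4.24 to 13.0), so no expression is read from the share of that rat. When each nucleus was thinned to 2000 UMIs the shares were 19.4%, 9.47%, 3.37%, 9.39% and 7.35% in dopamine nuclei against 6.97%, 3.74%, 7.39%, 3.98% and 1.69% in oligodendrocyte nuclei, with 787 dopamine nuclei too shallow and left out. The order within each rat was the same as without thinning, although in rat 3 thinning left 29 of the 166 oligodendrocyte nuclei.

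**Figure D1:**
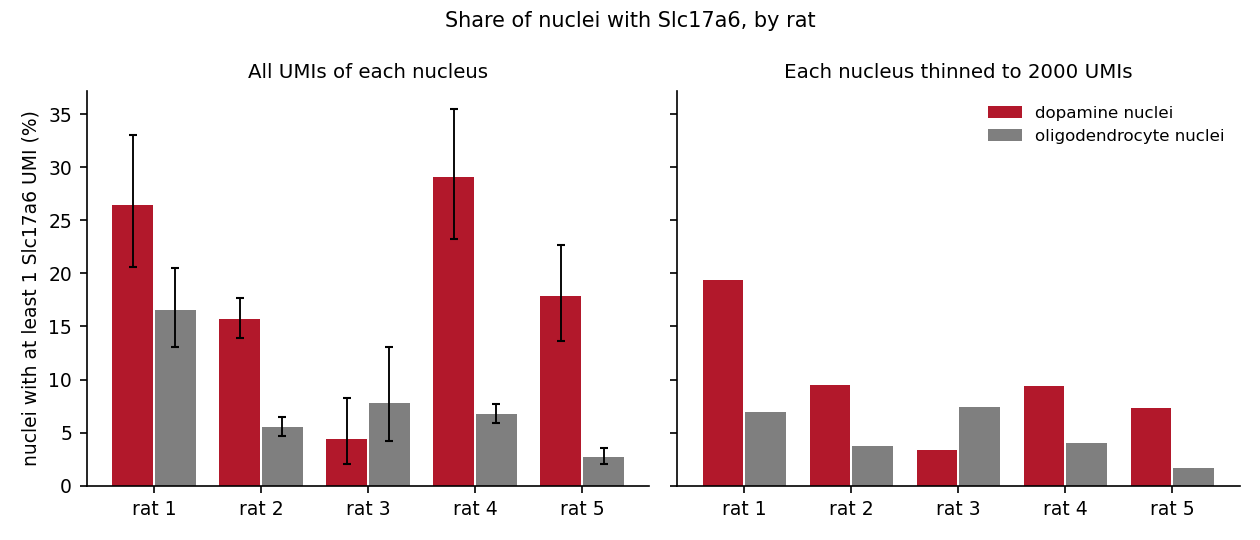
Percent of dopamine nuclei (red) and oligodendrocyte nuclei (grey) with at least 1 *Slc17a6* UMI in each of 5 rats, with all UMIs (left, bars are exact 95% Clopper-Pearson intervals, which cover counting error only) and with each nucleus thinned to 2000 UMIs (right, no intervals). Dopamine nuclei stand above oligodendrocyte nuclei in 4 rats and below them in rat 3, at 4.43% against 7.83%.

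The share was higher in deeper nuclei, over all rats and within rats 1, 2, 4 and 5 between the shallowest and the deepest class. Among dopamine nuclei of the 5 rats with 1000 to fewer than 2000 UMIs 9.40% had *Slc17a6* (exact 95% interval 7.46 to 11.7), and among those with at least 10000 UMIs 27.8% had it (23.2 to 32.8). Over the same range and all rats *Mbp*, a myelin gene, fell from 67.9 to 11.2 UMIs per 10000. *Mbp* was lower in the deepest class in rats 1, 2, 4 and 5, by the least in rat 1 (63.9 to 32.5), and higher in rat 3 (6.74 to 44.7), whose deepest class held 2 nuclei. The 4 dopamine genes together fell from 63.4 to 30.1 per 10000, and were lower in the deepest class in each rat. The rule itself sets part of this fall, since at least 3 of these genes had to be detected in each nucleus. Shallow nuclei could pass only at a higher level per 10000. *Slc17a6* stood at 0.872 per 10000 over all dopamine nuclei of the shallowest class and at 0.406 in the deepest. It was lower in the deepest class in rats 1, 2 and 4 and higher in rat 5, at 0.289 against 0.00 in 38 shallow nuclei. In rat 3 the share was 3.03% and 5.65% in the 2 shallower classes, and *Slc17a6* was found in 0 of the 11 and 0 of the 2 nuclei of the deeper ones, with exact 95% upper bounds of 28.5% and 84.2%. The shallow class was mostly of rat 2, with 552 of its 787 nuclei, and these had a median of 3.64% mitochondrial UMIs.

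**Figure D2:**
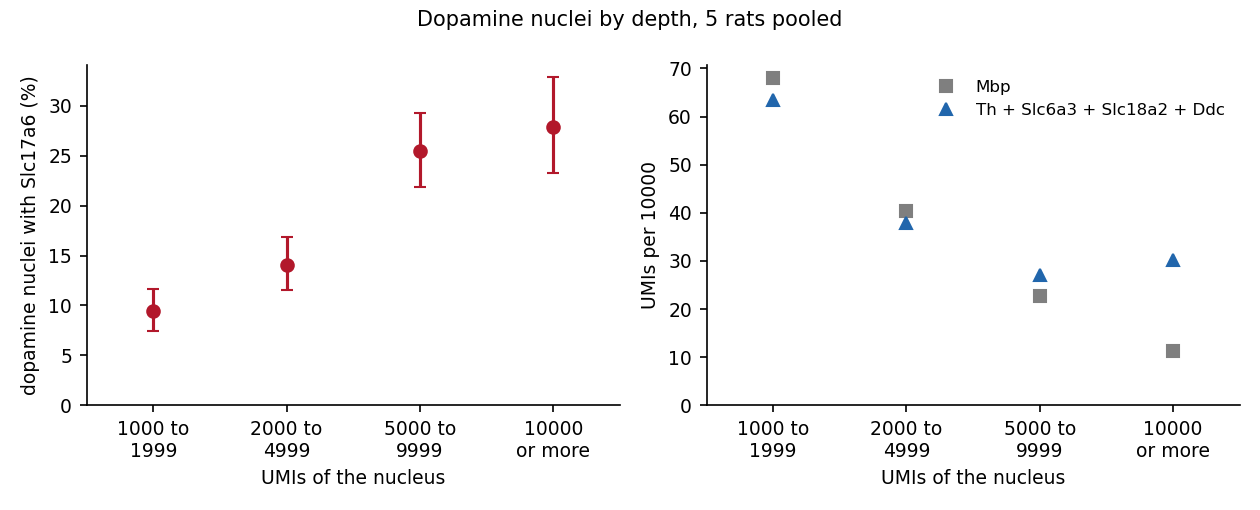
Dopamine nuclei of all 5 rats pooled in 4 classes of UMI total, with the percent that had *Slc17a6* (left, bars are exact 95% Clopper-Pearson intervals for counting error) and the level of *Mbp* and of the 4 dopamine genes that chose the nuclei (right, UMIs per 10000). The share climbs from 9.40% to 27.8% while *Mbp* falls from 67.9 to 11.2.

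The *Slc17a6* signal of single nuclei was small. Of the 415 *Slc17a6*-positive dopamine nuclei 282 had 1 *Slc17a6* UMI, 133 (32.0%) had 2 or more, and the highest had 13. The 657 UMIs of all of them gave 4.92, 2.55, 4.16, 1.55 and 1.65 *Slc17a6* UMIs per 10000 in rats 1 to 5, a mean of 2.96 ± 1.52 (SD, n = 5). The highest levels were those of rats 1 and 3, whose positive nuclei were also the shallowest, at medians of 2037 and 3254 UMIs. At a minimum of 1 UMI per nucleus, a shallow nucleus starts from a higher level per 10000. *Slc17a6* in free RNA was highest in these 2 rats as well, at 1.93 and 1.77 per 10000. With free RNA subtracted, as estimated from oligodendrocyte nuclei, their levels were 4.66 and 3.96. What part depth or free RNA had was not tested. Among nuclei with at least 5000 UMIs, of which rat 3 had 0 that were *Slc17a6*-positive, rat 1 was also highest, at 3.60 against 1.92, 1.50 and 1.51 in rats 2, 4 and 5. Neurons with *Slc17a6* and without the dopamine genes, chosen with the same minimum of 1 UMI, stood at 3.31, 2.07, 4.65, 1.92 and 1.93 per 10000, so the ranges of both kinds of *Slc17a6* neuron overlapped. Since each of these nuclei was chosen for having a UMI, the level cannot show how many of them were positive through free RNA alone.

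The dopamine genes of the rule were present at lower levels in the *Slc17a6*-positive nuclei of most rats, which is again a description without a test. *Th* stood at 5.75, 7.28, 6.43, 4.41 and 4.89 UMIs per 10000 in rats 1 to 5, against 12.1, 10.3, 6.03, 5.18 and 6.54 in *Slc17a6*-negative dopamine nuclei. *Slc6a3* stood at 8.07, 7.53, 2.65, 4.32 and 5.80 against 20.8, 13.3, 5.74, 6.85 and 7.10. *Th* was lower in 4 rats and a little higher in rat 3, and *Slc6a3* was lower in all 5. *Slc18a2* ranged from 2.89 to 4.16 against 2.81 to 7.36, and *Ddc* from 6.21 to 11.7 against 11.0 to 15.3. The *Slc17a6*-positive nuclei were the deeper ones in each rat, at medians of 2037, 5264.5, 3254, 9929.5 and 8047 UMIs. The *Slc17a6*-negative ones held medians of 1700, 2596, 2476.5, 8931 and 6749. Over all dopamine nuclei the 4 genes together were lower in the deepest class than in the shallowest, partly through the rule itself. What part depth had in these lower levels was not tested. All 4 genes were detected in 229 of the 415 nuclei, and 3 of them in 186. The lowest sum inside the rule was 8.11 per 10000 and the highest just outside it 7.90, and 105 *Slc17a6* nuclei missed the rule by that sum alone.

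Dopamine identity genes that the rule did not use were checked next. In the *Slc17a6*-positive dopamine nuclei of rats 1, 2, 4 and 5 the orphan receptor gene *Nr4a2* stood at 0.662, 0.923, 0.924 and 1.02 UMIs per 10000, and the growth factor receptor *Ret* at 2.65, 1.98, 1.35 and 1.36. The homeobox factors *Lmx1b* and *Pitx3* ranged from 0.662 to 1.70 and from 0.166 to 0.409. *En1* ranged from 0.152 to 0.579, *Foxa2* from 0.167 to 0.245 and the orphan transporter *Slc10a4* from 0.167 to 0.414. The counts of *Foxa2* and *Slc10a4* were low, at 60 and 61 UMIs in all. *Drd2*, a further marker, was present but called lower than in *Slc17a6*-negative dopamine nuclei, as given below. Against other *Slc17a6* neurons, also below, *Nr4a2*, *Lmx1b*, *Ret* and *Drd2* were called higher, and *En1*, *Foxa2* and *Pitx3* were not testable. Those other neurons had been chosen for little or none of the dopamine genes of the rule. Higher dopamine markers against them are therefore no independent support for the label. Levels of these genes in free RNA are not given. The label of dopamine neuron thus rested on markers of the rule and on some outside it, for the summed nuclei and not for each nucleus.

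*Slc17a6*-positive and *Slc17a6*-negative dopamine nuclei were then compared over rats. UMI counts were summed per rat and kind of nucleus and fitted with the quasi-likelihood test of edgeR with the rat as a block. A gene was called at a Benjamini-Hochberg adjusted p under 0.05. Rat 3 had too few *Slc17a6*-positive nuclei and stayed out, so n = 4 pairs of sums. The genes of the rule were not tested. The calls were few, 69 genes higher and 44 lower in *Slc17a6*-positive nuclei among 10179 tested, or 1.11% in either direction, 0.678% higher and 0.432% lower. In bulk sums of this kind, fewer nuclei with a gene and less of it per nucleus cannot be told apart. The compared nuclei differed in depth, with medians of 2037, 5264.5, 9929.5 and 8047 UMIs in the *Slc17a6*-positive nuclei of rats 1, 2, 4 and 5 against 1700, 2596, 8931 and 6749 in the *Slc17a6*-negative ones, so the gap was widest in rat 2. Taking for each positive nucleus a negative one of like depth gave 28 genes higher (0.337%) and 29 lower (0.349%) among 8319 tested, or 0.685%, and nuclei with at least 5000 UMIs gave 38 higher (0.393%) and 45 lower (0.465%), or 0.857%. Under 1% mitochondrial UMIs, in rats 2, 4 and 5, 129 genes were higher and 123 lower among 10059 tested. With 1 rat left out, and so fewer pairs, 18, 24 and 37 genes were called without rats 2, 4 and 5. Of these, 17, 24 and 37 were among the 113. Without rat 1, 149 genes were called. Of the 113, those that could be tested without rats 1, 2, 4 and 5 were 113, 106, 113 and 112, and each kept its sign. The cause of the changed counts was not tested.

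The largest rise was that of a transcription factor gene. *Ebf2*, a helix-loop-helix factor of the early B cell factor family active in neuronal development, was at 2.36, 1.82, 2.20 and 0.556 UMIs per 10000 in the *Slc17a6*-positive dopamine nuclei of rats 1, 2, 4 and 5. In the *Slc17a6*-negative nuclei it was at 1.04, 0.415, 0.456 and 0.192. It was higher in each rat, although rat 5 was low in both kinds of nucleus, so that the ranges overlapped. The log2 difference was 1.90 ± 0.17 (SE, adjusted p = 1.43e-05). Its relative *Ebf3* differed by 0.76 ± 0.14 (adjusted p = 0.00781), at 2.71 to 4.21 against 1.27 to 2.85 per 10000. The nuclear factor I genes *Nfia* and *Nfib* differed by 0.72 ± 0.12 and 0.84 ± 0.15, with adjusted p of 0.00581 and 0.00592. *Nfia* did not overlap between the kinds of nucleus, at 4.43, 3.81, 2.77 and 2.91 against 2.19, 2.71, 1.56 and 1.81 per 10000. *Nfia* and *Nfib* were also high in oligodendrocyte nuclei, at means of 9.24 and 2.84 per 10000 over the 4 rats. With matched depth *Ebf2*, *Nfia* and *Nfib* were called and *Ebf3* was not (0.53, adjusted p = 0.286). These 4 genes were the ones called among the 15 testable of 32 transcription factors known from glutamate neurons of the midbrain and hypothalamus, 4 higher and 0 lower. Over all genes 0.678% were called higher and 0.432% lower. The list had a median log2 difference of 0.29 beside -0.00089 over all genes tested. This and the other gene lists were written with earlier results of these data known, so their counts and medians are a description and no independent support. The median of the transcription factor list was 0.17 at 5000 UMIs or more, with 4 higher and 0 lower. In nuclei of rats 2, 4 and 5 with under 1% mitochondrial UMIs it was -0.021, with 5 higher and 1 lower, beside 129 and 123 of 10059 over all genes.

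*Htr2c*, the serotonin 2C receptor, was the clearest receptor gene. It was at 4.30, 2.73, 1.67 and 2.20 UMIs per 10000 in *Slc17a6*-positive dopamine nuclei of rats 1, 2, 4 and 5 and at 1.15, 1.02, 0.905 and 1.31 in *Slc17a6*-negative ones. Among these 4 rats the positive nuclei of each were above the negative nuclei of all, and the log2 difference was 1.21 ± 0.15 (adjusted p = 0.000238). In rat 3, outside the fit, the 9 positive nuclei were at 0.378, below the 0.864 of its negative ones. These 9 nuclei held 26453 UMIs in all, so their value rests on very few UMIs of the gene and shows no direction. The levels in neurons with *Slc17a6* but without dopamine genes were higher still, at 6.10, 4.33, 9.56 and 7.90. *Htr2c* was the 1 gene called of the 14 testable of 25 receptors for GLP-1, opioids and other reward peptides and transmitters, beside 1.11% over all genes. At 5000 UMIs or more it was again the 1 called, of 13. In nuclei of rats 2, 4 and 5 with under 1% mitochondrial UMIs 3 of 13 were higher and 1 lower, beside 129 and 123 of 10059 over all genes. *Glp1r*, the receptor the study is about, had a UMI in 1 of 415 *Slc17a6*-positive and in 7 of 1998 *Slc17a6*-negative dopamine nuclei, too few to test, and in 5 of 7987 oligodendrocyte nuclei. Its share in the positive nuclei was 0.241% (exact 95% interval 0.00610 to 1.34).

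*Reln* and *Sulf1* were other genes with large rises. *Reln*, which encodes the secreted glycoprotein reelin, was at 1.74, 1.51, 1.68 and 0.645 UMIs per 10000 in the *Slc17a6*-positive nuclei of rats 1, 2, 4 and 5 against 0.660, 0.481, 0.760 and 0.365. *Sulf1*, a sulfatase that edits heparan sulfate, was at 1.94, 1.66, 2.47 and 1.07 against 0.575, 0.440, 0.890 and 0.623. *Sulf1* did not overlap between the kinds of nucleus, and *Reln* did so by rat 5. Their log2 differences were 1.32 ± 0.15 (adjusted p = 9.55e-05) and 1.52 ± 0.16 (3.97e-05). The collagen gene *Col11a1* differed by 1.31 ± 0.18, the cadherin gene *Cdh6* by 1.26 ± 0.22 and *Nrp1*, a co-receptor for class 3 semaphorins, by 1.09 ± 0.16. Of the 34 testable axon guidance genes 3 were higher, *Nrp1*, *Ntng1* and *Slit2*, and 1 was lower, the ephrin receptor *Epha4* at -0.74 ± 0.14. With matched depth *Ntng1* and *Slit2* were no longer called, at adjusted p of 0.246 and 0.552. The list had 1 higher and 1 lower at 5000 UMIs or more, beside 38 and 45 of 9681 over all genes. It had 5 higher and 2 lower under 1% mitochondrial UMIs, beside 129 and 123 of 10059 over all genes. Of 35 testable synaptic adhesion genes 2 were higher and 2 lower. The counts of both lists over all nuclei stand beside 0.678% higher and 0.432% lower over all genes. *Synpr*, a synaptic vesicle protein, was at 0.372, 0.436, 0.318 and 0.400 per 10000 against 0.0426, 0.172, 0.0868 and 0.210, a log2 difference of 1.43 ± 0.25. The remaining rises among the 12 named higher genes were *Ano5*, *Ptchd4*, *Tcerg1l* and the T-type calcium channel gene *Cacna1i*, at log2 differences of 1.08 to 1.48. *Cacna1i* and *Synpr* rested on 72 and 109 UMIs in the positive nuclei of all rats.

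Among potassium channel genes 5 of 28 testable were higher and 1 lower, beside the 0.678% and 0.432% over all genes. At 5000 UMIs or more 2 of 27 were higher and 2 lower, beside 38 and 45 of 9681 over all genes. Under 1% mitochondrial UMIs 6 of 28 were higher and 4 lower, beside 129 and 123 of 10059 over all genes. *Kcnj3*, a subunit of the G protein-gated channels through which receptors such as D2 act, was at 2.44, 2.70, 3.08 and 2.29 UMIs per 10000 against 0.979, 0.939, 1.61 and 1.60 in rats 1, 2, 4 and 5. Its groups did not overlap, and the log2 difference was 1.07 ± 0.15 (adjusted p = 0.000669). The others higher were *Kcnh1*, *Kcnh7* and *Kcnh8* of the ether-à-go-go family and *Kcnip1*, an accessory protein of Kv4 channels, at 0.84 to 1.03. Of these 5, *Kcnj3* and *Kcnip1* were also called with matched depth, and adjusted p for *Kcnh1*, *Kcnh7* and *Kcnh8* was then 0.295 to 0.677. *Kcns3*, which encodes a subunit that modifies Kv2 channels, was lower, at 0.0828, 0.124, 0.152 and 0.200 against 0.213, 0.409, 0.376 and 0.431 per 10000, a difference of -1.45 ± 0.24. Of 20 testable glutamate receptor genes the metabotropic receptor *Grm5* (0.93 ± 0.17) and the kainate subunit *Grik2* (0.54 ± 0.13) were higher and the kainate subunit *Grik3* was lower (-0.66 ± 0.14). With matched depth *Grik2* had an adjusted p of 0.0971, and *Grm5* and *Grik3* were called. Under 1% mitochondrial UMIs 5 of 20 glutamate receptor genes were higher and 2 lower, beside 129 and 123 of 10059 over all genes.

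The lower genes held several that divide dopamine neurons. *Sox6*, a transcription factor of ventral tier substantia nigra dopamine neurons, was at 1.49, 0.836, 0.818 and 0.422 UMIs per 10000 in *Slc17a6*-positive nuclei of rats 1, 2, 4 and 5 against 2.23, 2.59, 1.01 and 1.61 in *Slc17a6*-negative ones. *Drd2*, the dopamine autoreceptor, was at 0.455, 1.50, 1.99 and 2.33 against 1.49, 2.62, 4.15 and 3.25. Both were lower in each rat, with overlapping ranges, and their log2 differences were -1.17 ± 0.20 (adjusted p = 0.0047) and -0.87 ± 0.15 (0.00555). *Pde11a*, a cyclic nucleotide phosphodiesterase, stood apart in every rat, at 0.290, 0.472, 0.273 and 0.489 against 0.766, 0.966, 1.56 and 1.47 (-1.55 ± 0.20). Of 14 testable genes of the ventral tier list *Sox6*, *Kcns3* and *Col25a1* were lower and *Slc26a7*, an anion exchanger, was higher. Of 16 testable genes of the medial VTA list the neuropeptide gene *Cck*, the neurotrophin gene *Ntf3* and *Pde11a* were lower and *Adcyap1*, the gene of the peptide PACAP, was higher. The call of *Cck* was lost with matched depth, where its adjusted p was 0.555, and that of *Slc26a7* at an adjusted p of 0.144. Over all genes 0.678% were called higher and 0.432% lower. The ventral tier list had 0 higher and 3 lower of 14 at 5000 UMIs or more, beside 38 and 45 of 9681 over all genes. Under 1% mitochondrial UMIs it had 3 higher and 3 lower of 15, beside 129 and 123 of 10059. The median of the ventral tier list was 0.024, and that of the medial VTA list -0.077.

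Genes of dopamine handling and of dopamine neuron receptors gave calls in the lower direction alone, with *Drd2* counted in both lists. Over all genes 0.678% were called higher and 0.432% lower. Of 15 testable dopamine handling genes outside the rule 0 were higher and 2 lower, *Drd2* and the monoamine oxidase gene *Maob*, with a median of -0.53. Of 12 receptor and growth factor genes 0 were higher and 2 lower, *Drd2* and the nicotinic subunit *Chrna5*, with a median of -0.41. *Ret* differed by -0.41 ± 0.13 and was not called (adjusted p = 0.213). Of the 9 testable transcription factors of dopamine identity 0 were called, by edgeR, with 1 at an unadjusted p under 0.05 and a median of -0.13. A list of 9 genes with 0 calls is near the 1.11% called over all genes. Here *Nr4a2* differed by 0.16 ± 0.19, *Lmx1a* by 0.19 ± 0.14 and *Lmx1b* by -0.23 ± 0.13. DESeq2 called 72 genes in all, 66 of them shared with edgeR.

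The steepest fall was in a gene of another transmitter. *Tph2*, the rate-limiting enzyme of serotonin synthesis in the brain, was at 0.579, 0.203, 0.00 and 0.0889 UMIs per 10000 in *Slc17a6*-positive dopamine nuclei of rats 1, 2, 4 and 5 against 3.64, 0.903, 0.673 and 1.22 in *Slc17a6*-negative ones. The log2 difference was -2.83 ± 0.27 (adjusted p = 1.84e-05). *Slc6a4*, the serotonin transporter, differed by -2.26 ± 0.36. At least 3 UMIs of *Tph2*, *Slc6a4* and *Fev* together were found in 52 of the 1998 *Slc17a6*-negative and 4 of the 415 *Slc17a6*-positive nuclei. Without those nuclei 51 genes were higher and 50 lower, and 92 of them were among the 113. *Tph2* itself, by which nuclei had been left out, then differed by -0.42 and was not called (adjusted p = 0.769). The other falls among the 12 named lower genes were *Nckap5*, *Tmem207*, the lipoprotein receptor ligase *Mylip*, *Fam20a*, the metalloprotease *Tll1*, the disulfide isomerase *Pdia5*, the acyltransferase *Mboat1* and *Lypd1*, a relative of the nicotinic receptor modulators, at -1.02 to -1.69.

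**Figure D3:**
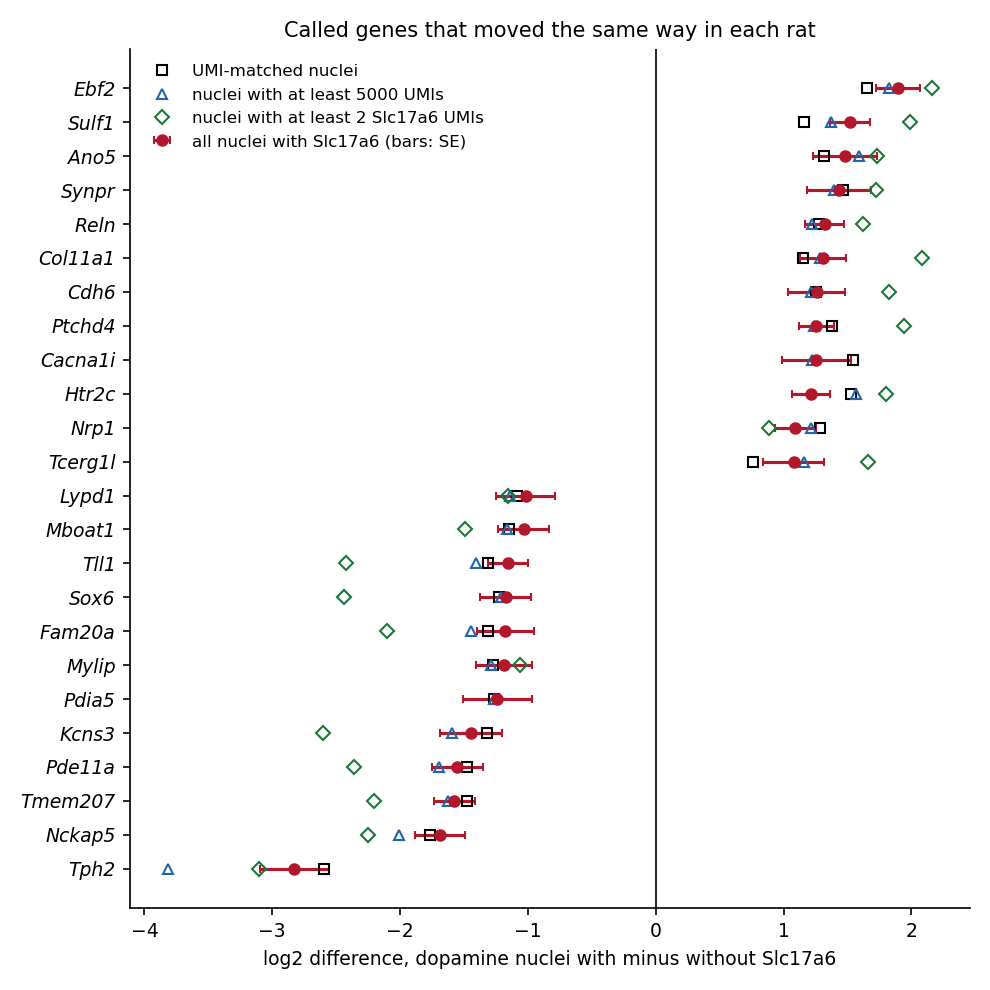
Log2 differences between dopamine nuclei with and without *Slc17a6* for 12 higher and 12 lower genes, those with the largest differences among genes called and moved the same way in each rat (rats 1, 2, 4 and 5, edgeR, red points with SE), beside the values in nuclei of matched depth, in nuclei with at least 5000 UMIs and in nuclei with at least 2 *Slc17a6* UMIs. The sets are parts of the same nuclei, and each gene that could be tested lies on the same side of 0 at 5000 UMIs and at 2 *Slc17a6* UMIs, while that side at matched depth was a condition for a gene to be shown, so *Slc6a4*, *Ano2* and *Baiap2l1*, not testable there, are left out.

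These 24 genes were also fitted in other choices of nuclei, as a description, since those are parts of the same nuclei and the genes were chosen for large differences in every rat. Among nuclei with at least 5000 UMIs 23 of 24 were called, and among nuclei with under 1% mitochondrial UMIs, in rats 2, 4 and 5, all 24. With matched depth 18 were called, while their sign there was a condition of the choice. With at least 2 *Slc17a6* UMIs asked of the positive nuclei 22 could be tested and 20 were called. That set held 25, 66, 25 and 16 positive nuclei of rats 1, 2, 4 and 5, and in rats 1 and 2 they were far deeper than the negative ones, at medians of 5888 against 1700 and 7475.5 against 2596 UMIs.

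Genes of the glutamate and GABA systems outside *Slc17a6* gave no calls between the kinds of dopamine nucleus over the 4 rats. This is near the share over all genes, of which 1.11% were called. Of 9 testable genes of glutamate synthesis and transport 0 were called by edgeR, with 1 at an unadjusted p under 0.05 and a median of 0.017. *Slc17a7* and *Slc17a8*, the genes of VGLUT1 and VGLUT3, each had UMIs in 6 of the 415 *Slc17a6*-positive nuclei. Of 7 GABA genes 0 were called, with 2 at an unadjusted p under 0.05. *Gad1* differed by -0.62 ± 0.20 and *Gad2* by 0.45 ± 0.17, with adjusted p of 0.226 and 0.364. *Gad1* was called lower with at least 2 *Slc17a6* UMIs asked of the positive nuclei, at -1.28 (adjusted p = 0.0464). *Gad2* was higher in 3 of 4 rats and lower in rat 1, and without rat 1 it was called at 0.64 (adjusted p = 0.0176), as it was in nuclei of rats 2, 4 and 5 with under 1% mitochondrial UMIs at 1.14 (8.48e-07). At least 1 of *Gad1*, *Gad2* and *Slc32a1* was detected in 222 *Slc17a6*-positive nuclei (53.5%) and 45.3% of the *Slc17a6*-negative ones, against 25.4% of oligodendrocyte nuclei. Thinned to 2000 UMIs the shares were 46.0%, 33.4%, 19.1% and 23.3% in the positive nuclei of rats 1, 2, 4 and 5 and 44.4%, 34.4%, 14.4% and 18.4% in the negative ones. The mean difference was 2.57 percentage points ± 2.75 (SD, n = 4), higher in 3 of 4 rats and lower in rat 2. The exact two-sided sign-flip permutation test gave p = 0.25, and with 4 rats it cannot go below 0.125. Thinned nuclei of at least 5000 UMIs differed by 3.21 points ± 1.58, unthinned nuclei by 8.66 ± 3.80 and unthinned nuclei with at least 2 UMIs in sum by 7.41 ± 2.22, each higher in 4 of 4 rats at an exact permutation p of 0.125.

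Markers of glial and vascular cells gave no calls between the kinds of dopamine nucleus. Over all genes 1.11% were called, so 0 calls in lists this short is near that share. Of 12 oligodendrocyte genes 0 were called by edgeR (median -0.11, 0 at an unadjusted p under 0.05), and the same held for 6 precursor, 9 astrocyte and 3 microglia genes that could be tested. Of 5 vascular genes 0 were called, with 2 at an unadjusted p under 0.05. Under 1% mitochondrial UMIs 1 of 3 was higher, beside 129 higher of 10059 over all genes. The vascular list shares *Bnc2* with the list of dopamine identity factors and *Ebf1* with the medial VTA list. Its counts therefore do not measure vascular cells alone.

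The *Slc17a6*-positive dopamine nuclei were also set against the other *Slc17a6* neurons of the same punches, which had at least 3 of the 5 neuron genes of the rule, no *Slc6a3* and under 2 UMIs per 10000 of the dopamine genes. There were 334 of these nuclei, with 36, 86, 29, 126 and 57 in rats 1 to 5. Many more genes differed, 746 higher and 412 lower in the dopamine nuclei among 8298 tested in rats 1, 2, 4 and 5, or 14.0% in either direction, 8.99% higher and 4.97% lower. The dopamine nuclei were the shallower ones, at medians of 2037 against 9443 UMIs in rat 1 and 5264.5 against 7645.5 in rat 2. In rats 4 and 5 they were at 9929.5 against 11116 and 8047 against 8514. With matched depth 352 genes were higher and 298 lower among 8134 tested. Counts between 521 and 1261 were found when a rat was left out. Among nuclei with at least 5000 UMIs 405 were higher and 294 lower (3.63%), or 8.64% in either direction.

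Genes of dopamine neurons were among the most raised, in nuclei that had been selected on other dopamine genes. The largest difference was that of the lysyl hydroxylase gene *Plod2*, at 5.07 ± 0.36. The nicotinic subunits *Chrnb3* and *Chrna6* differed by 4.81 ± 0.37 and 4.44 ± 0.47 on the log2 scale, and *Aldh1a1*, a retinal dehydrogenase of ventral tier and some VTA dopamine neurons, by 4.77 ± 0.35. *Aldh1a1* was at 2.32, 3.21, 2.71 and 6.27 UMIs per 10000 in the *Slc17a6*-positive dopamine nuclei of rats 1, 2, 4 and 5 against 0.153, 0.298, 0.0519 and 0.0401 in the other *Slc17a6* neurons. *Drd2* was at 0.455 to 2.33 against 0.184 to 0.386 (2.44 ± 0.21). Of 10 testable dopamine neuron receptor and growth factor genes 7 were higher and 0 lower, *Ret* at 2.12 ± 0.20 among them. Of 5 testable identity factors 4 were higher, *Bnc2*, *Lmx1b*, *Nr4a2* and *Satb1*, and of 11 medial VTA genes 6, *Calb1*, *Calb2* and *Cck* among them. Of 11 ventral tier genes 5 were higher, *Aldh1a1* and *Lmo3* among them, and 1 was lower, *Ptpn5*. The counts of these lists stand beside 8.99% higher and 4.97% lower over all genes. The guidance cue gene *Ntn1* and *Slc26a7* each differed by 3.02. *Dlk1*, at 3.02 ± 0.36, was far higher in rat 1, at 1.86 UMIs per 10000, than in rats 2, 4 and 5, at 0.470 to 0.689.

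Among the lower genes in the dopamine nuclei, *Arpp21* differed by -3.50 ± 0.24, the regional transcription factors *Dach1* and *Meis2* by -3.04 ± 0.26 and -2.82 ± 0.30, and the metabotropic glutamate receptor *Grm7* by -2.55 ± 0.20. *Grm7* was at 1.49, 2.61, 2.46 and 2.40 UMIs per 10000 in the *Slc17a6*-positive dopamine nuclei against 12.4, 11.6, 14.6 and 15.3 in the other *Slc17a6* neurons. Of 20 testable glutamate receptor genes 0 were higher and 9 lower, with a median of -0.45 beside 0.013 over all genes tested. Under 1% mitochondrial UMIs, again in rats 2, 4 and 5, 2 were higher and 7 lower, beside 397 and 346 of 8348 over all genes. The opioid receptor genes *Oprd1* and *Oprm1*, the cannabinoid receptor gene *Cnr1* and *Htr2c* were the 4 called of 10 receptors of the reward list, each lower, and under 1% mitochondrial UMIs 2 of 11 were higher and 4 lower. *Oprd1* rested on 15 UMIs in the dopamine nuclei. Of 24 potassium and HCN channel genes 5 were higher, *Kcnj6* and *Kcnn3* among them, and 7 lower, with 6 higher and 6 lower at 5000 UMIs or more and 7 higher and 6 lower of 25 under 1% mitochondrial UMIs. *Gad2* was higher (0.95 ± 0.18) and *Gad1* lower (-0.96 ± 0.27), and genes of glutamate synthesis and transport gave 0 calls of 9, with 4 at an unadjusted p under 0.05. The other named genes with large falls were *Mtus2*, *Sntb1*, *Zmat4*, *Asic2*, *Hs6st3* and the glycine receptor gene *Glra1*, at -2.21 to -2.77.

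Glial genes and genes common to all cells moved with this comparison. Among all genes tested 8.99% were called higher. All 12 oligodendrocyte genes were higher in the dopamine nuclei, *Mbp* by 1.19 ± 0.23, and 5 of 8 astrocyte genes, with a median of 1.01. Their summed oligodendrocyte level was 23.1 to 87.0 UMIs per 10000 over the 5 rats, against 11.0 to 35.2 in the other *Slc17a6* neurons. Among nuclei with at least 5000 UMIs 7 of 12 oligodendrocyte genes were called, with a median of 0.87, and among nuclei with under 1% mitochondrial UMIs 4 of 11, with a median of 0.64. No oligodendrocyte gene was at 0 in either kind of nucleus. Of 64 ribosomal protein genes 58 were higher and 0 lower, and all 13 mitochondrially encoded genes were higher, with a median of 0.99. Among nuclei with under 1% mitochondrial UMIs 3 of 61 ribosomal protein genes and 1 of 12 mitochondrial ones were higher. The part of free RNA and of nuclear quality in the 746 higher genes was not tested beyond these values, and under 1% mitochondrial UMIs 397 genes were higher and 346 lower.

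**Figure D4:**
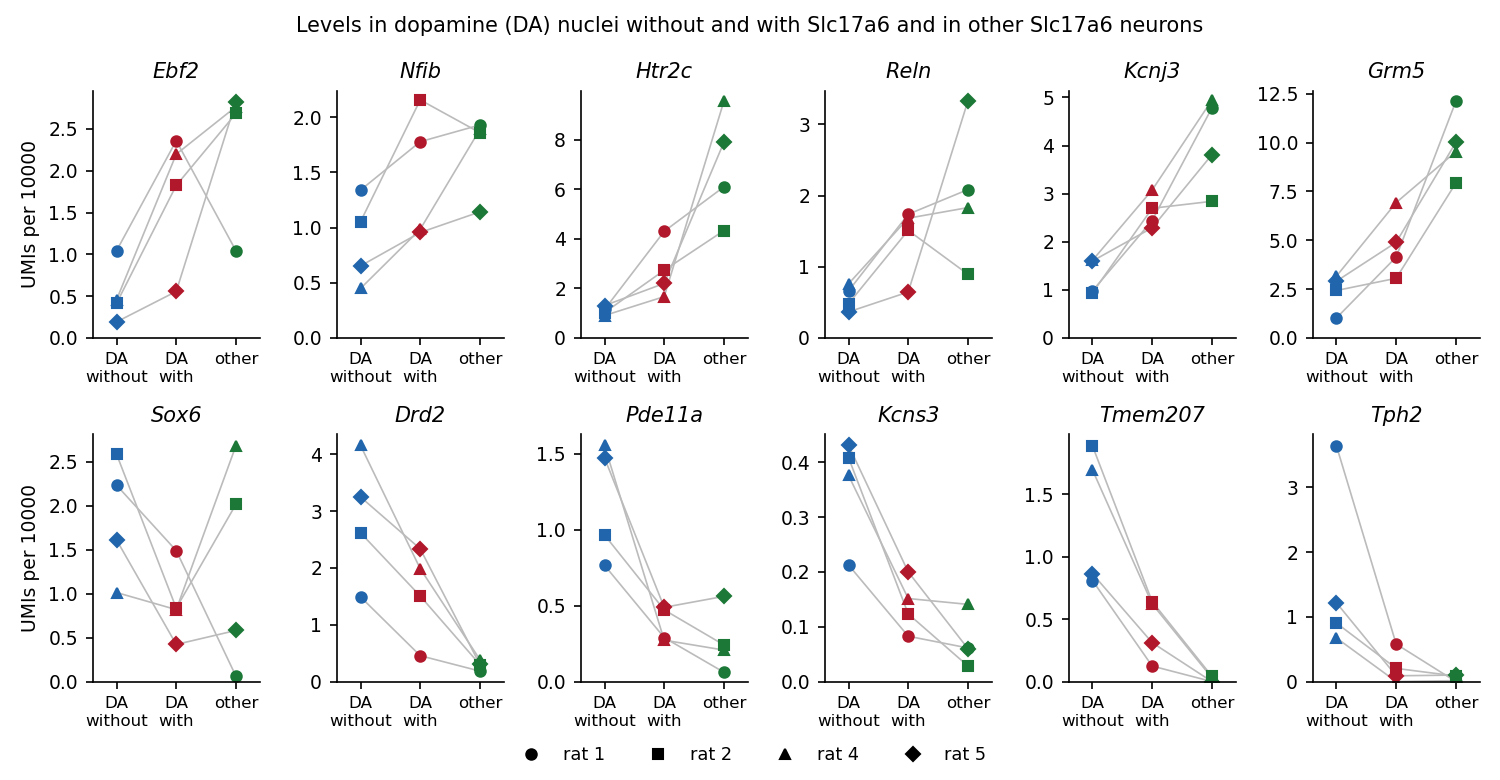
Levels of 12 genes (UMIs per 10000 of the summed nuclei) in *Slc17a6*-negative dopamine nuclei (blue), *Slc17a6*-positive dopamine nuclei (red) and other *Slc17a6* neurons (green), with 1 symbol per rat joined by grey lines (rats 1, 2, 4 and 5). *Htr2c* and *Grm5* climb from left to right in each of the 4 rats and *Drd2* and *Tmem207* fall, while *Ebf2* and *Sox6* have no common order in the other *Slc17a6* neurons.

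Levels of the 3 kinds of nucleus side by side showed different orders. *Htr2c*, *Grm5*, *Kcnj3* and *Kcnip1* were lowest in *Slc17a6*-negative dopamine nuclei, between in the *Slc17a6*-positive ones and highest in the other *Slc17a6* neurons in each of the 4 rats. For *Grm5* these levels were 1.02, 2.43, 3.16 and 2.91 UMIs per 10000, then 4.14, 3.05, 6.93 and 4.89, then 12.1, 7.93, 9.53 and 10.0. *Drd2* and *Tmem207* had the opposite order in each rat. *Ebf3* was highest in the *Slc17a6*-positive dopamine nuclei of rats 1, 2, 4 and 5, and the other *Slc17a6* neurons had 0.582 to 2.21 per 10000. *Slc26a7* was also highest in them, at 1.78, 0.916, 0.818 and 0.734 against 0.0284 to 0.221 in the other *Slc17a6* neurons. *Ebf2* was not called between the 2 kinds of *Slc17a6* neuron (-0.49 ± 0.31, adjusted p = 0.336), and without rat 1 it was called lower in the dopamine nuclei (-0.83, 0.00629). No test was made across the 3 kinds, since the positive nuclei are shared by both comparisons.

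Dopamine nuclei with at least 5000 UMIs, 914 in all with 241 *Slc17a6*-positive ones, were grouped into 14 clusters from genes other than those of the rule, with libraries centred. Clusters are given by number and leading genes, and their genes are not tested. Cluster 8, led by *Colec12*, *Casr* and *Htr2c*, had the highest share of *Slc17a6*-positive nuclei, 20 of 31 or 64.5% (exact 95% interval 45.4 to 80.8), with 16 of its nuclei from rat 2. Cluster 1, led by *Slc26a7* and *Ebf2* with *Reln*, *Sulf1* and *Gad2* among its 10 leading genes, had 45 of 87 or 51.7% (40.8 to 62.6). In rats 2, 4 and 5 the share in cluster 1 was 56.1%, 59.1% and 26.7%. Both clusters had little *Slc6a3*, at 2.01 UMIs per 10000 in cluster 1 and 1.52 in cluster 8, and *Sox6* at 0.0355 and 0.0779. *Th* was at 2.59 in cluster 1, the lowest of the 14 clusters, and at 5.10 in cluster 8. Free RNA held *Th* at 4.67 to 9.19 and *Slc6a3* at 4.20 to 7.36 per 10000. *Ddc* was at 8.41 and 12.3 in clusters 1 and 8, and *Lmx1a* at 3.66 and 5.18. *Gad2* was at 5.02 in cluster 1, the highest of the 14, and at 0.234 in cluster 8. Cluster 12, with *Pax8* and *Col8a1*, had 39.6%, and cluster 14, with *Fstl5*, had 37.5%.

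At the other end, cluster 3, led by *Adamts18* and *Fam160a1*, had 5 of 85 or 5.88% (1.94 to 13.2). Its *Slc6a3* was 11.2 and its *Sox6* 4.0 UMIs per 10000. Cluster 11, led by *Vip*, had 10.4%, and cluster 7, with *Pde11a*, *Ano2* and *Ntf3* among its leading genes, had 13.8%. Cluster 13, with *Aldh1a1* at 10.2 UMIs per 10000, had 28.1% in all, but 7.41% in rat 2 against 53.8% and 41.2% in rats 4 and 5. The median depth of the clusters described so far and of cluster 6 ran from 7725 to 10729.5 UMIs, and cluster 3 was among the deeper ones.

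Clusters 2, 4, 5, 9 and 10 had at least 2 genes of vascular cells, astrocytes, microglia, serotonin neurons or oligodendrocytes among their 10 leading genes. They held 335 of the 914 nuclei (36.7%) and 84 of the 241 *Slc17a6*-positive ones (34.9%), so the nuclei chosen by the rule were not all without genes of other cell types. The share with *Slc17a6* was 25.1% in these clusters and 27.1% in the others. Without these clusters, and with rat 1 out for want of nuclei, 78 genes were higher and 57 lower in *Slc17a6*-positive nuclei, 83 of them among the 113. *Ebf2* then differed by 2.51, *Htr2c* by 2.21, *Nfib* by 2.03 and *Sox6* by -2.21 on the log2 scale, each called. *Gad2* differed by 1.40 and was called there (adjusted p = 7.45e-05), unlike over all nuclei. *Tph2* was no longer testable, and *Cck* differed by -0.15 (adjusted p = 0.849).

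**Figure D5:**
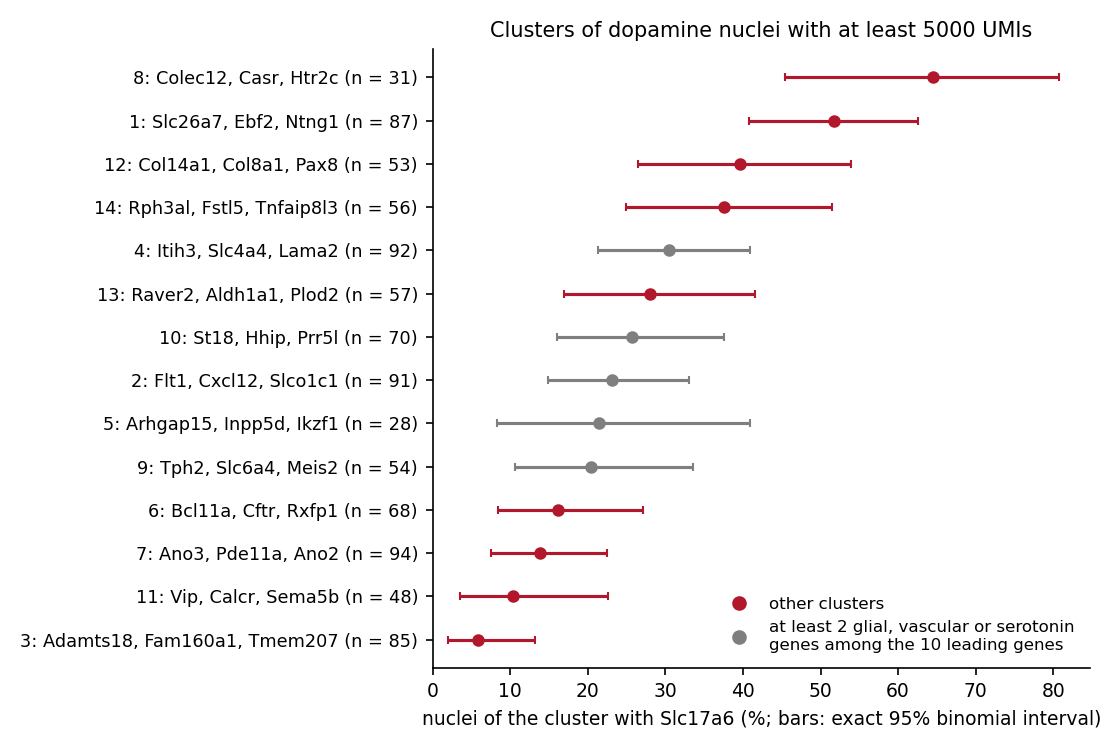
Percent of nuclei with *Slc17a6* in each of 14 clusters of dopamine nuclei with at least 5000 UMIs, with leading genes and the number of nuclei at the left and exact 95% Clopper-Pearson intervals for counting error as bars. Clusters with genes of other cell types among their leading genes are grey. The share runs from 5.88% in cluster 3 to 64.5% in cluster 8.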

How the data were processed

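Single-nucleus libraries (10x Genomics 3' v3.1) of VTA punches from 5 rats were analysed, 1 library per rat. The authors deposited UMI counts per gene and barcode, unfiltered and without the correction for free mRNA, integration or filters of the paper's methods. The labels name Cell Ranger 8.0.1 and the matrix headers an earlier version, and the genome build is not given in the sources used here. Nuclei were filtered and chosen as stated in the report, and the members and gene lists were chosen with earlier results of these data known. Scrublet marked 8 of 22084 barcodes (0.0362%), too few to have worked, so leaving out the 6% with the highest scores was added as an alternative.

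Counts were summed per rat and kind of nucleus, in rats with at least 10 nuclei of both kinds, and tested with edgeR 4.0.16 (glmQLFTest, TMM, filterByExpr, rat as a block, adjusted p under 0.05), in R 4.3.3, and with DESeq2 1.42.0 as an alternative. SEs were taken from edgeR's log2 difference and F statistic. The sums of a rat come from the same library, which pairs them. Across genes, deviations from group means were correlated within a rat at 0.564 to 0.732 in the first comparison and 0.305 to 0.646 in the second. P-values rest on how the difference within a rat varied over these rats, not on the spread of levels between rats. The spread of each gene was estimated by edgeR with help from the other genes, so SEs and p-values are not those of each gene alone. Named genes were up to 12 higher and 12 lower with the largest differences, called, moved the same way in every rat and, in the first comparison, with the same sign at matched depth, together with examples from lists of gene groups. *Baiap2l1*, *Ano2* and *Slc6a4* were not testable at matched depth. *Slc6a4* is named for its values, as are genes given by list. Matched nuclei were at most 1.25 times apart in UMIs. Thinned shares are exact expectations. Clusters (scanpy 1.11.5) used 2000 variable genes, 20 components, 20 neighbours and a Leiden resolution of 0.8. Exact intervals are Clopper-Pearson and cover counting error only. Per nucleus depth limits detection, at a minimum of 1000 UMIs. Alternatives were other tests, scalings, filters, choices of nuclei and leaving out each rat. A few genes are not reported here.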

Additional observations from a re-analysis of the deposited data

Results flagged for a closer look

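Dopamine nuclei with 5000 or more genes were left out of every comparison, and in them *Slc17a6* was frequent. There were 356 such nuclei that met the rest of the rule, and 149 of them (41.9%) had *Slc17a6*.

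In 4 of 101 sets of 4 or 5 rats examined, 1 rat stood far from the others, about as many as chance gives, which flags about 1 set in 20. *Tll1* was at 0.830 UMIs per 10000 in the *Slc17a6*-negative dopamine nuclei of rat 1, below 1.73 to 1.83 in rats 2, 4 and 5. *Dlk1* was at 1.86 in the *Slc17a6*-positive dopamine nuclei of rat 1, above 0.470 to 0.689. *Dach1* was at 1.66 in those of rat 2, above 0.166 to 0.318. *Sntb1* was at 1.46 in the other *Slc17a6* neurons of rat 5, above 0.668 to 0.797.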

How the results depend on the processing

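In the comparison of dopamine nuclei, 113 calls became 72 with DESeq2, 57 with matched depth, 41 with matched depth among nuclei of at least 5000 UMIs, 199 without a filter and 252 under 1% mitochondrial UMIs, and 18 to 149 with 1 rat left out. With no replicate block edgeR gave 0 calls, with 153 genes at an unadjusted p under 0.05. Against other *Slc17a6* neurons 1158 calls became 639 with DESeq2, 650 with matched depth, 489 with at least 2 *Slc17a6* UMIs, 699 at 5000 UMIs or more, 743 under 1% mitochondrial UMIs and 178 with no replicate block, and 521 to 1261 with 1 rat left out. The cause was not tested, beyond fewer nuclei or rats in some of them. Under 1% mitochondrial UMIs 1092 of the 1123 calls that could be tested kept their sign in that second comparison. Of the genes given with a difference in the text and refitted, each kept its direction in each fit where it was examined, except 3 that were not called in the first comparison. These were *Gad1*, at 0.058 with matched depth among nuclei of at least 5000 UMIs, *Lmx1a*, at -0.010 among such nuclei outside the clusters with genes of other cells, and *Nr4a2*, at -0.030 with no replicate block. The mean share with *Slc17a6* fell to 6.68% at 2 UMIs or more and moved by less than 1 SD with 1 rat left out, as did the *Slc17a6* level. The difference in GABA genes stayed positive with each rat left out. It was 8.66 points without thinning and 8.59 with rat 3, and each exact permutation p was 0.125 or above. The alternatives of 5000 UMIs, mitochondrial share, highest Scrublet scores, rat 3, serotonin genes and clusters were chosen after seeing the data.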

Other observations

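The 9 *Slc17a6*-positive dopamine nuclei of rat 3, left out of both comparisons, held 26453 UMIs in all. *Dach1* was at 8.32 and *Mtus2* at 4.16 UMIs per 10000 in them, against 0.166 to 1.66 and 0.334 to 1.23 in the other rats. *Htr2c* was at 0.378, below the 0.864 of the *Slc17a6*-negative dopamine nuclei of the same rat, but on very few UMIs of the gene.

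Cluster 9, led by *Tph2* and *Slc6a4* with *Slc17a8* among its 10 leading genes, had *Slc17a6* in 11 of 54 nuclei (20.4%, exact 95% Clopper-Pearson interval 10.6 to 33.5), and 40 of the 54 were of rat 2.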
